A study of Homo sapiens with 24 samples.

Results

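SFPQ, an RNA-binding protein of the nucleus, was depleted in SBC-3 cells with 2 small interfering RNAs (siRNAs), and the effect was taken as the mean of the siSFPQ-2 and siSFPQ-3 groups minus the siCtrl group. The comparison used 9 of the 24 libraries of the series, chosen by their treatment label: 6 libraries with an siRNA against SFPQ and 3 with the control siRNA. SBC-3 is an established human small cell lung cancer line, here labelled wild type. The groups siSFPQ-2, siSFPQ-3 and siCtrl had 3 libraries each, and in all of them the siRNA was reverse transfected at 10 nM with Lipofectamine RNAiMAX and the cells were harvested 72 h later. Poly(A)-selected RNA was sequenced, and the deposited values are read counts per gene. The 2 siRNA groups share the siCtrl libraries, so their values are set side by side and are not independent of each other. Whether replicates were grown and transfected separately is not stated in the labels. The p-values therefore cover only how much these libraries scatter, and that scatter may be technical. Other groups of 3 libraries each, also at 10 nM and 72 h, are used below for reference. These are ASO-Ctrl, with a control antisense oligonucleotide, and siNONO-3 and siNONO-4, with siRNAs against NONO.

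SFPQ (splicing factor proline and glutamine rich) forms dimers with its relatives NONO and PSPC1. These proteins bind RNA and DNA and build paraspeckles, nuclear bodies that assemble on the long noncoding RNA NEAT1. SFPQ is known for roles in transcription by RNA polymerase II and in RNA splicing, and in mouse neurons and muscle it is known for its part in transcribing long genes to their end.

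SFPQ RNA (chromosome 1, 35176378 to 35193145, hg38) had 230.3, 239 and 153 CPM with siSFPQ-2 and 237, 239.5 and 191 CPM with siSFPQ-3, against 1268, 1191 and 1211 CPM in siCtrl. Levels are CPM, that is counts per library scaled with TMM factors of edgeR to the same total. The 6 knockdown libraries did not overlap the controls, and the change on the log2 scale was -2.51 (SE 0.09, adjusted p = 5.89e-19). Log2 fold changes, their standard errors (SE) and adjusted p-values are from edgeR's quasi-likelihood test with Benjamini-Hochberg adjustment over all tested genes, and a gene was called, and said to rise or fall, at an adjusted p under 0.05.

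Total counts ran between 4243196 and 9747514 for siSFPQ-2, between 8483440 and 8846636 for siSFPQ-3 and between 9999025 and 13525528 for siCtrl. Reads of mitochondrially encoded genes made up 10.4% ± 0.893 of the counts in the siSFPQ libraries and 8.21% ± 0.756 in siCtrl (SD, n = 6 and 3, exact 2-sided permutation p = 0.0238, the smallest these libraries allow, 0.0595 after adjustment over 5 measures). The number of genes with a read, the share of the 50 most abundant genes and the share of ribosomal protein genes had exact permutation p-values of 1.0, 0.69 and 0.5.

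The small cell label was set against marker genes. Of 12 neuroendocrine markers, INSM1, NCAM1 and UCHL1 had 0 reads in siCtrl, NEUROD1 stood at 4.62 CPM, and most of the summed level came from STMN1, a microtubule regulator of dividing cells. The summed level of the 12 was 155 to 226 CPM with siSFPQ-2 and 448 to 483 CPM with siSFPQ-3, against 560 to 642 CPM in siCtrl. Each of the 7 markers of the non-neuroendocrine class of small cell lung cancer was at 1 CPM or more in siCtrl, and their sum was 791 to 900 CPM with siSFPQ-2 and 926 to 1056 CPM with siSFPQ-3, against 578 to 667 CPM in siCtrl. Within this list REST, VIM, AXL, CAV1 and ANXA1 rose, while MYC and YAP1 fell, with log2 changes of -1.41 and -0.29. SYP, a synaptic vesicle protein of the neuroendocrine list, went against the falling sum of that list, with 65.9 CPM with siSFPQ-2 and 37.4 CPM with siSFPQ-3, against 17.2 CPM in siCtrl (log2 change 1.52, adjusted p = 2.32e-07). The control cells thus carried markers of the non-neuroendocrine class, while several defining neuroendocrine genes were at or near 0 and SYP and NEUROD1 were present. The 5 epithelial markers summed to 341 to 488 and 374 to 455 CPM with the siRNAs against SFPQ and to 95.6 to 115 CPM in siCtrl, nearly all from the keratin KRT8, with EPCAM and KRT19 at 0 reads in siCtrl. The 7 fibroblast markers summed to 24.04 to 28.01 and 16.7 to 26.7 CPM, against 15.9 to 23.2 CPM in siCtrl, with DCN and LUM at 0 reads. Sums of the 5 endothelial and 7 leukocyte markers stayed at or below 2.81 CPM in every library, but both were higher with the siRNAs against SFPQ. The leukocyte sum was 2.48 to 2.81 CPM with siSFPQ-2 and 1.205 to 2.21 CPM with siSFPQ-3, against 0 to 0.536 CPM in siCtrl. For the endothelial sum these were 1.15 to 1.26, 1.67 to 2.455 and 0.219 to 0.307 CPM. The squamous marker TP63, a transcription factor of basal epithelium, averaged 10.0 and 3.02 CPM with siSFPQ-2 and siSFPQ-3 and 70.5 CPM in siCtrl, while KRT5 and KRT14 had 0 reads in siCtrl. In RNA from whole cultures, fewer cells of a type and less RNA per cell cannot be told apart.

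The knockdown called 70.4% of the 15869 tested genes, 34.7% as higher and 35.8% as lower, with 17.7% at least 2-fold higher and 14.9% at least 2-fold lower. The median log2 fold change over all tested genes was -0.018, with -0.005 for siSFPQ-2 and -0.015 for siSFPQ-3. With both siRNAs and in their mean, 28.6% rose and 27.2% fell. Because so many genes were called, each gene list below is read against these shares and this median, and its counts carry no test of their own. Members that were low in the controls entered the test only where another group was high. For lists with at least 2 such members the count is therefore given again for members at 1 CPM or more in ASO-Ctrl, a control group outside the comparison; these are called expressed in ASO-Ctrl. Of all 13672 tested genes expressed in ASO-Ctrl 30.9% rose and 40.1% fell (median -0.106). Of the 12517 tested protein-coding genes 34.7% rose and 38.2% fell.

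In outline, most tested members fell in the lists of respiratory complexes, mitochondrial translation, ribosome assembly, nucleotide synthesis and kinetochores, while most rose in those of MAP kinase feedback, the AP-1, ETS, KLF and STAT families, interleukins, the TNF superfamily, integrins and several other surface and matrix lists. The plot of called shares by list shows both sides against the shares of all genes.

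**Figure D1:**
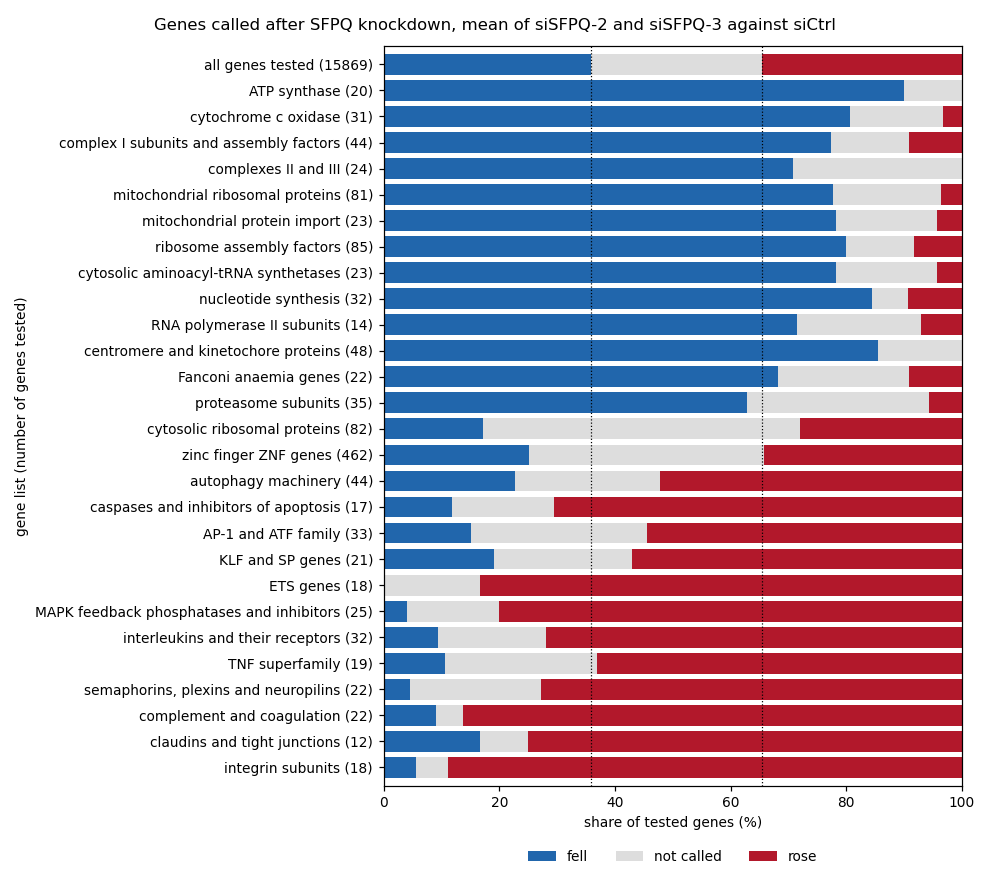
Share of the tested members of each gene list that fell (blue), were not called (grey) or rose (red) after SFPQ knockdown, with the number of tested members in parentheses. The top bar and the dotted lines give the shares over all 15869 tested genes, of which 35.8% fell and 34.7% rose. In the ATP synthase list 18 of 20 fell and in the integrin list 16 of 18 rose. Members low in the controls were tested only where another group was high, which fixes part of the red bars. At 1 CPM or more in ASO-Ctrl 12 of 14 integrins, 11 of 18 interleukin genes and 6 of 9 tight junction genes rose, against 30.9% of all genes at that level.

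Gene lists differed in how often 2 short sets of letters stood near their start sites. Promoter windows (RefSeq, GRCh38.p14, 250 bases before to 50 after the start) were matched by symbol for 10180 of 12478 tested protein-coding genes, of which 9533 were at 1 CPM or more in ASO-Ctrl. The letters CCGGAAG, the core bound by ETS factors, were searched on both strands and stood in 20.5% of these promoters. They stood in 36.0% of the 222 promoters of the nuclear-encoded mitochondrial lists, in 40.9% of the ribosome assembly promoters, in 10.0% of the promoters of genes at least 2-fold higher and 14.7% of those at least 2-fold lower, both below the share of all promoters, in 8.33% of the 60 matrix and adhesion promoters and in 0 of 21 MAPK feedback promoters. The letters TGANTCA, called the AP-1 letters here, allow any base at N. They take in TGACTCA and TGAGTCA, the element bound by AP-1 (dimers of JUN and FOS proteins), and also the looser forms TGAATCA and TGATTCA, which were not counted apart. The AP-1 letters stood in 4.14% of all promoters, in 6.39% of those of genes at least 2-fold higher, in 4.0% of those at least 2-fold lower and in 2.25% of the mitochondrial ones. Of the 395 promoters with the AP-1 letters 42.8% belonged to genes that rose, against 31.9% of the 9138 without them. Genes that fell made up 33.7% and 40.95%. Other letters were searched too, and TATAAA leaned likewise toward genes at least 2-fold higher. These made up 18.25% of the 504 promoters with TATAAA and 10.93% of the 9029 without, against 17.47% and 11.05% for AP-1. A match is a description of letters, and neither binding nor a part in the change was measured.

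The windows below show the AP-1 letters in capitals with the bases around them, 5′ to 3′ along the gene, in genes of the rising groups that are described further on. TIMM10, a gene that fell, is shown beside them because its promoter holds both kinds of letters. Other genes that fell hold the AP-1 letters too and are not shown, among them PDE3A (log2 change -3.34) and GJA1 (-1.35). The letters are of the looser forms in FST (TGATTCA), TIMM10 and PDE3A (both TGAATCA).
TNFRSF9 (chr1:7940857-7940903, minus strand): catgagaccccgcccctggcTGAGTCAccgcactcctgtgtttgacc
SPRED3 (chr19:38389711-38389757, plus strand): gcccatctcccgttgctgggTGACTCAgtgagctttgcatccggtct
PLAUR (chr19:43670329-43670375, minus strand): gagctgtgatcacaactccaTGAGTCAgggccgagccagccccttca
FST (chr5:53480449-53480495, plus strand): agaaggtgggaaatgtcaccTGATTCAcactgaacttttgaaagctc
LAMA3 (chr18:23872875-23872921, plus strand): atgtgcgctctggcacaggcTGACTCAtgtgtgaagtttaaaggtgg
CLDN4 (chr7:73830815-73830861, plus strand): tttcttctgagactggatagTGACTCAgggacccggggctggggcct
TIMM10 (chr11:57530770-57530816, minus strand): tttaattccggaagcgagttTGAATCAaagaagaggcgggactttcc

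The next windows show the ETS letters, or their reverse complement, in capitals in 3 genes that fell (UQCRQ, SDHAF3 and TIMM10) and in RPL3 and NUP58, which rose, since promoters with these letters are found on both sides.
UQCRQ (chr5:132866568-132866614, plus strand): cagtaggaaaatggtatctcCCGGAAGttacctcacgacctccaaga
SDHAF3 (chr7:97117615-97117661, plus strand): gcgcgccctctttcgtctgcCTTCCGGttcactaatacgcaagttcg
TIMM10 (chr11:57530783-57530829, minus strand): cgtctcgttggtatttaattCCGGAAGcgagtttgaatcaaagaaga
RPL3 (chr22:39319654-39319700, minus strand): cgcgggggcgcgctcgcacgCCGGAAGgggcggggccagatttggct
NUP58 (chr13:25301539-25301585, plus strand): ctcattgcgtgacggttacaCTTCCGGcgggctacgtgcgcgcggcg

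Nuclear genes for the respiratory, translation and import machinery of mitochondria fell. The 8 lists of this machinery hold the respiratory complexes, ATP synthase, the tricarboxylic acid cycle, protein import and mitochondrial translation; together 200 of their 257 tested members fell (77.8%) and 10 rose (3.89%), with a median of -0.60. Of these 200, 177 fell with each siRNA as well. Outside these 8 lists the mitochondrial carriers, which pass solutes through the inner membrane, were nearer to the background, with 17 of 38 tested members lower and 10 higher (median -0.23). Genes of fatty acid oxidation fell in 16 of 28 cases and rose in 8, or in 5 without siCtrl replicate 1, without siSFPQ-3 replicate 1 or with no filter on low counts. Of the 13 protein genes that the organelle encodes itself, 5 rose (MT-ND4, MT-CO1, MT-CYB, MT-ND4L and MT-ND5), 1 fell (MT-ND6) and 7 were not called, with a median of 0.18; MT-ND4L, MT-ND5 and MT-ND6 were named after their values were seen. MT-CO1 and MT-ND4, subunits of the respiratory chain, rose by 0.38 and 0.47. MT-CYB rose by 0.40 against siCtrl but was not called when ASO-Ctrl took the place of siCtrl.

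Complex I takes electrons from NADH. Of 44 tested members of 45 listed subunits and assembly factors, 34 fell and 4 rose (median -0.71, with -0.62 for siSFPQ-2 and -0.79 for siSFPQ-3). NDUFS4 (chromosome 5, 53560633 to 53683338), an accessory subunit lost in Leigh syndrome, had 10.9, 9.18 and 5.77 CPM with siSFPQ-2 and 6.56, 6.63 and 6.63 CPM with siSFPQ-3, against 40.1, 45.4 and 35.6 CPM in siCtrl. The 6 knockdown values lay between 5.77 and 10.9 CPM, all below the controls, and the log2 change was -2.43 (SE 0.12, adjusted p = 5.25e-16). NDUFAF2, an assembly factor, had 6.39, 7.69 and 4.2 CPM with siSFPQ-2 and 6.2, 3.44 and 5.06 CPM with siSFPQ-3, against 30.1, 33.7 and 28.2 CPM in siCtrl, which changed its log2 level by -2.52 (SE 0.13, adjusted p = 1.97e-15). NDUFAF5, another assembly factor, rose by 0.44, and NDUFV2 rose by 1.82 but shares exons with another gene, so its count is uncertain.

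The remaining complexes fell with fewer exceptions. In complexes II and III 17 of 24 tested members fell and 0 rose (median -0.71), among them SDHAF3, an assembly factor of succinate dehydrogenase (-2.08), and CYC1, the cytochrome c1 subunit (-1.51). In cytochrome c oxidase 25 of 31 fell and 1 rose (median -0.45), with COX18, which inserts a core subunit into the membrane, at -1.27. In ATP synthase, which makes ATP from the proton gradient, 18 of 20 fell and 0 rose (median -0.61), with ATP5MK at -1.31. The summed level of the 118 tested respiratory members was 5941, 5729 and 5433 CPM with siSFPQ-2 and 5695, 5362 and 5201 CPM with siSFPQ-3, against 8204, 8151 and 7636 CPM in siCtrl, or 69.5% of the control mean, with no overlap between the groups.

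In the tricarboxylic acid cycle, which burns acetyl groups to feed the chain, 16 of 22 tested genes fell and 1 rose (median -0.50). SUCLG2, the subunit of succinyl-CoA ligase that works with GDP, had 8.06, 7.44 and 5.14 CPM with siSFPQ-2 and 5.96, 6.75 and 5.06 CPM with siSFPQ-3, against 105, 98.6 and 78 CPM in siCtrl. Its log2 change of -3.89 (SE 0.14, adjusted p = 5.86e-18) was far from the median of its list. The fall in the partner enzymes was smaller, with FH (fumarase) at -0.99 and IDH2 at -0.94, while SUCLA2, the subunit that works with ADP, rose by 0.39 and was not called without siCtrl replicate 3.

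Mitochondrial ribosomal proteins fell in 63 of 81 tested cases and rose in 3 (median -0.62, with -0.63 for siSFPQ-2 and -0.60 for siSFPQ-3). Their summed level was 3205, 3218 and 2895 CPM with siSFPQ-2 and 3128, 2988 and 2834 CPM with siSFPQ-3, against 4786, 4895 and 4338 CPM in siCtrl. The 6 knockdown sums lay below each control sum, at 65.2% of the control mean. MRPL1 of the large subunit had 23.1, 22.8 and 14.2 CPM with siSFPQ-2 and 22.7, 20.5 and 15.5 CPM with siSFPQ-3, against 68.8, 76 and 55.2 CPM in siCtrl, with a log2 change of -1.76 (SE 0.13, adjusted p = 8.06e-12). MRPS30 went against the list, with 100.1, 121 and 113 CPM with siSFPQ-2 and 116, 105 and 110.3 CPM with siSFPQ-3, against 77.6, 87.2 and 77.4 CPM in siCtrl and a log2 change of 0.46 (SE 0.075, adjusted p = 4.59e-06). Of 17 tested mitochondrial aminoacyl-tRNA synthetases, which load amino acids onto tRNA, 13 fell and 0 rose (median -0.61).

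The protein import machinery of the organelle moved likewise, with 18 of 23 tested members lower and 1 higher (median -0.69). TIMM21, a subunit of the inner membrane translocase, had 20.6, 23.3 and 20.1 CPM with siSFPQ-2 and 23.7, 20.2 and 14.9 CPM with siSFPQ-3, against 94.1, 99.9 and 87.7 CPM in siCtrl. The knockdown values lay together, far below the controls, and the log2 change was -2.20 (SE 0.089, adjusted p = 5.91e-18). TOMM34, a cytosolic chaperone of precursors, was the 1 member that rose, by 0.91. The share of mitochondrially encoded reads was higher in the knockdown libraries while these lists fell, and its part in them was not tested.

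**Figure D2:**
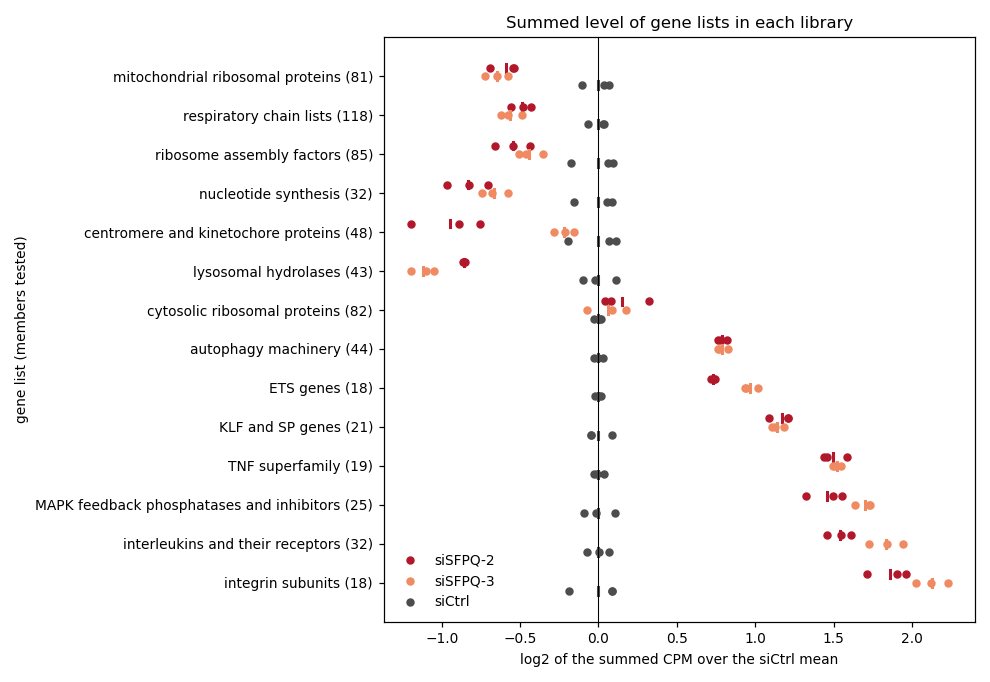
Summed CPM of the tested members of 14 gene lists in each library, as log2 of the ratio to the siCtrl mean, with siSFPQ-2 in red, siSFPQ-3 in orange and siCtrl in grey; points are libraries and ticks are group means. The mitochondrial ribosomal protein sums of the knockdown libraries are at 65.2% of the control mean and the integrin sums at 400.5%, while the kinetochore and cytosolic ribosomal protein sums overlap the controls.

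Ribosome assembly, the nucleolar pathway that processes and folds ribosomal RNA, fell as a list: 68 of 85 tested factors fell and 7 rose (median -0.57). The summed level was 8093, 8717 and 7481 CPM with siSFPQ-2 and 9243, 8568 and 8302 CPM with siSFPQ-3, against 12320, 12610 and 10470 CPM in siCtrl, without overlap and at 71.2% of the control mean. RRP15 and NIP7, factors of the large subunit, had log2 fold changes of -1.67 and -1.605, while NOP53 rose by 0.69 and UTP25 by 0.79. With no filter on low counts 4 members rose instead of 7. The E-box letters CACGTG, which are bound by MYC among others, stood in 35.2% of the 71 ribosome assembly promoters and in 10.4% of all promoters. Of the 996 promoters with these letters 44.6% belonged to genes that fell, against 40.2% of the 8537 without them. Falls of at least 2-fold made up 13.15% and 13.99% of these promoters. MYC itself had 25.6, 25.3 and 26.1 CPM with siSFPQ-2 and 35.7, 31.9 and 45.7 CPM with siSFPQ-3, against 75.3, 85.7 and 87.3 CPM in siCtrl, and its log2 change was -1.41 (SE 0.10, adjusted p = 2.83e-12). A part of MYC in the fall of this list was not tested.

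Cytosolic ribosomal protein genes, which code for the finished ribosome, did not move with the assembly factors. Of 82 tested members 23 rose and 14 fell (median 0.055), and their sums overlapped between the groups, at 29980 to 39450 CPM in the knockdown libraries and 30930 to 31830 CPM in siCtrl. The count of risen members depended on the controls, with 13 against ASO-Ctrl and 15 without siCtrl replicate 1. RPL3 of the large subunit had 918, 930.5 and 1187 CPM with siSFPQ-2 and 1010, 852 and 1106 CPM with siSFPQ-3, against 633, 679.6 and 705 CPM in siCtrl (0.57). Members with processed pseudogenes can share reads with them, so single values of this family are uncertain.

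Other parts of the growth machinery fell. Of 23 tested cytosolic aminoacyl-tRNA synthetases 18 fell and 1 rose (median -0.48). LARS1, which charges the leucine tRNA, had 127, 149.8 and 127 CPM with siSFPQ-2 and 119, 107 and 97 CPM with siSFPQ-3, against 325, 351 and 335 CPM in siCtrl. The groups did not overlap, with a log2 change of -1.49 (SE 0.069, adjusted p = 1.22e-16). Nucleotide synthesis had 27 of 32 tested genes lower and 3 higher, and its median of -0.94 was the lowest of the 61 lists described. RRM2, the ribonucleotide reductase subunit of S phase, had 65.3, 68.2 and 24.3 CPM with siSFPQ-2 and 106, 97.5 and 90.2 CPM with siSFPQ-3, against 262, 276 and 201 CPM in siCtrl (-1.79 (SE 0.22, adjusted p = 8.6e-07)). RRM2B, the reductase subunit that p53 is known to induce, rose to 276 ± 24.3 CPM with siSFPQ-2 and 236 ± 31.9 CPM with siSFPQ-3, against 133 ± 8.76 CPM in siCtrl (SD, n = 3 each), by 0.94 (SE 0.11, adjusted p = 6.25e-08); knockdown of NONO also raised it, by 1.00. PFAS of purine synthesis fell by 1.75 and DHODH of pyrimidine synthesis by 1.71.

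RNA polymerase II subunits fell in 10 of 14 tested cases and rose in 1 (median -0.75), and POLR2F, a subunit shared by the 3 nuclear polymerases, fell by 1.35. Proteins of the spliceosome's small particles fell in 34 of 54 cases and rose in 9 (median -0.34), with LSM6 at -1.49 and the branch site protein SF3B1 at 0.45. Nucleoporins fell in 22 of 32 cases and rose in 5 (median -0.33), or in 3 without siCtrl replicate 3. Within that list NUP93, a scaffold protein, fell by 0.99 and NUP58 of the central channel rose by 0.45. The proteasome, which degrades tagged proteins, had 22 of 35 tested subunits lower and 2 higher (median -0.38).

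Genes of chromosome segregation and crosslink repair fell with both siRNAs, with lower medians for siSFPQ-2. Of 48 tested centromere and kinetochore proteins, which tie chromosomes to the spindle, 41 fell and 0 rose. The median was -0.82, with -1.16 for siSFPQ-2 and -0.41 for siSFPQ-3, and 26 members fell in the mean and with each siRNA. The summed level was 2561, 2804 and 2065 CPM with siSFPQ-2 and 4250, 3898 and 4077 CPM with siSFPQ-3, against 4964, 5109 and 4140 CPM in siCtrl. The siSFPQ-2 sums lay below the controls, whereas the highest siSFPQ-3 sum was above the lowest control. SKA2, of the complex that holds kinetochores on microtubules, had 69, 68.5 and 47.8 CPM with siSFPQ-2 and 90.5, 76.2 and 85.3 CPM with siSFPQ-3, against 274, 261 and 262 CPM in siCtrl (-1.89 (SE 0.078, adjusted p = 1.03e-17)). SPC25 of the NDC80 complex had 4.6, 6.2 and 5.14 CPM with siSFPQ-2 and 8.35, 8.1 and 8.79 CPM with siSFPQ-3, against 28.9, 28.8 and 20.6 CPM in siCtrl (-1.98 (SE 0.15, adjusted p = 6.21e-12)).

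The Fanconi anaemia pathway, which repairs DNA crosslinks, had 15 of 22 tested genes lower and 2 higher, with medians of -0.81 for siSFPQ-2 and -0.37 for siSFPQ-3. UBE2T, its E2 enzyme, changed by -1.68 with siSFPQ-2 and -0.65 with siSFPQ-3, while FANCL, the ligase it works with, rose by 0.66. Cohesin and condensin, the rings that hold and fold chromosomes, fell in 16 of 24 cases and rose in 3 (median -0.41), with NCAPG2 of condensin at -1.54 and the ring subunit SMC3 at 0.69. Kinesins, the motors that walk on microtubules, were split, with 17 of 31 lower and 11 higher. KIF15 of the spindle fell by 1.49 and KIF13B of cargo transport rose by 1.92. FOXM1, a transcription factor of mitotic genes, changed by -1.67 with siSFPQ-2 and -0.75 with siSFPQ-3, a difference between siRNAs that was not tested for any of these genes.

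The largest falls in CPM were in abundant RNAs of other kinds. HMGA2 (chromosome 12, 65824460 to 65966291), a chromatin protein of embryonic and tumour cells, had 426, 470 and 326 CPM with siSFPQ-2 and 344, 407 and 286 CPM with siSFPQ-3, against 2304, 2336 and 2107 CPM in siCtrl. The groups did not overlap, with a log2 change of -2.58 (SE 0.095, adjusted p = 2.6e-18). CXCL6, a chemokine for neutrophils, had 725, 867 and 695 CPM with siSFPQ-2 and 723, 818 and 717 CPM with siSFPQ-3, against 2452, 2338 and 2285 CPM in siCtrl (-1.64 (SE 0.072, adjusted p = 3.67e-17)). PLA2G4A, the phospholipase that frees arachidonic acid, fell by 1.49, the surface peptidase MME by 1.24, ITM2A by 2.07, GNAS, the stimulatory G protein, by 0.89 and ZPLD1 by 0.80. NTS, the neuropeptide neurotensin and the most abundant of these RNAs, had 15530, 16090 and 15780 CPM with siSFPQ-2 and 10140, 10410 and 10110 CPM with siSFPQ-3, against 21120, 22030 and 19040 CPM in siCtrl (-0.71 (SE 0.065, adjusted p = 1.99e-10)). Among the largest rises in CPM outside the mitochondrial genome were EEF1A1, the elongation factor of translation (0.74), the histone chaperone NAP1L1 (0.74), RIMKLB (1.19), the nuclear noncoding RNA MALAT1 (1.41) and the receptor DCBLD2, with 1220, 1343 and 1075 CPM with siSFPQ-2 and 1556, 1592 and 1339 CPM with siSFPQ-3, against 217, 213 and 144 CPM in siCtrl (2.82 (SE 0.26, adjusted p = 3.05e-08)).

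**Figure D3:**
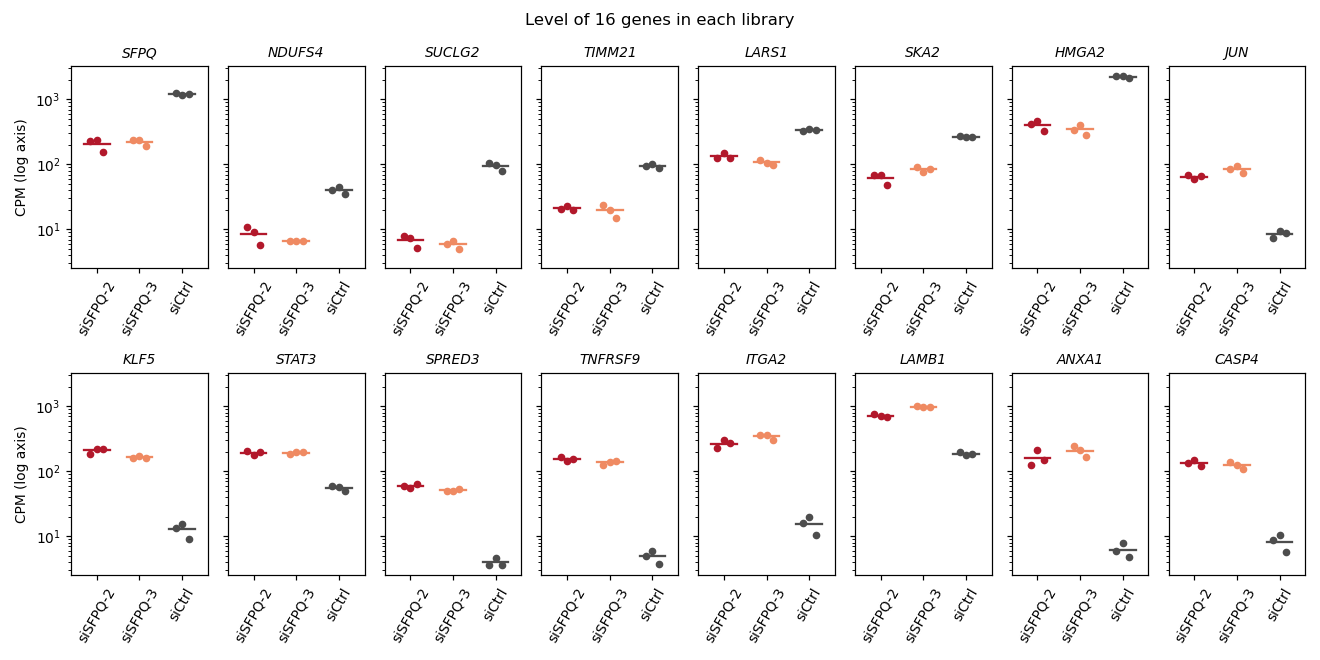
Level of 16 genes in each library in CPM on a log axis, with siSFPQ-2, siSFPQ-3 and siCtrl from left to right; points are libraries and bars are group means. In each panel the 6 knockdown values lie on one side of the 3 control values, from SFPQ (153 to 239.5 CPM against 1191 to 1268 CPM) to CASP4 (110.2 to 149 CPM against 5.68 to 10.3 CPM).

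Signalling lists differed from one another. The EGF family was split, with 5 of 11 tested members higher and 5 lower (median -0.23), and 3 higher and 4 lower of 8 expressed in ASO-Ctrl. EGFR had 2.81, 2.73 and 1.36 CPM with siSFPQ-2 and 2.98, 4.3 and 2.77 CPM with siSFPQ-3, against 18.5, 16.5 and 17.5 CPM in siCtrl. ERBB3, a partner receptor without strong kinase activity of its own, had 63.2, 39.9 and 38.4 CPM with siSFPQ-2 and 51.3, 70.7 and 54.7 CPM with siSFPQ-3, against 5.45, 2.56 and 3.06 CPM in siCtrl. The log2 fold changes were -2.69 (SE 0.19, adjusted p = 1.43e-12) for EGFR and 3.83 (SE 0.40, adjusted p = 9.4e-08) for ERBB3. Of the ligands, HBEGF rose by 2.21 and NRG1 fell by 1.48. AREG (amphiregulin) had 230 reads in the 6 knockdown libraries and 2 in siCtrl, a ratio of 83.9 with a counting interval of 22.97 to 697.0.

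Feedback inhibitors of the MAP kinase pathway, genes that ERK is known to induce and that then dampen it, rose in 20 of 25 tested cases and fell in 1 (median 0.83); each of the 25 was at 1 CPM or more in ASO-Ctrl. The summed level was 1860, 1936 and 1654 CPM with siSFPQ-2 and 2189, 2180 and 2057 CPM with siSFPQ-3, against 619, 709 and 652 CPM in siCtrl, 299.7% of the control mean. SPRED3, an inhibitor of RAF activation, had 59.6, 55.8 and 63.9 CPM with siSFPQ-2 and 49.6, 49 and 53.7 CPM with siSFPQ-3, against 3.66, 4.7 and 3.57 CPM in siCtrl (3.80 (SE 0.14, adjusted p = 8.76e-19)). PHLDA1, an early response gene, rose by 4.30. DUSP6, the phosphatase of ERK, averaged 270 and 420 CPM with siSFPQ-2 and siSFPQ-3 and 8.83 CPM in siCtrl (5.27), but shares exons with another gene, so its count is uncertain. DUSP9, another phosphatase, fell by 1.54.

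Transcription factors downstream of growth factor and stress signals rose as well. In 4 families, AP-1 and ATF, ETS, KLF and SP, and STAT and IRF, 54 of 83 tested members rose and 10 fell (median 0.72), and 48 of 73 rose and 10 fell among members at 1 CPM or more in ASO-Ctrl. JUN had 68.3, 59 and 67 CPM with siSFPQ-2 and 86.6, 93.9 and 73 CPM with siSFPQ-3, against 7.51, 9.51 and 8.82 CPM in siCtrl (3.11 (SE 0.15, adjusted p = 2.09e-16)), and CREB5 rose by 2.46. Of 18 tested ETS genes 15 rose and 0 fell (median 0.94), and of 14 expressed in ASO-Ctrl 13 rose. ETS2 had 26.9, 31.2 and 49.5 CPM with siSFPQ-2 and 42.6, 39.6 and 49 CPM with siSFPQ-3, against 8.13, 6.34 and 8.23 CPM in siCtrl (2.39 (SE 0.18, adjusted p = 5.25e-12)), and ELF3, an ETS factor of epithelium, rose by 3.54. Of 21 tested KLF and SP genes 12 rose and 4 fell (median 0.73), and of 18 expressed in ASO-Ctrl 10 rose and 4 fell. KLF5, a factor of epithelial proliferation, had 184, 221 and 223 CPM with siSFPQ-2 and 161, 173 and 158 CPM with siSFPQ-3, against 13.5, 15.5 and 9.25 CPM in siCtrl (3.88 (SE 0.26, adjusted p = 1.61e-10)), and KLF7 had 174, 186 and 189 CPM with siSFPQ-2 and 165, 163 and 141 CPM with siSFPQ-3, against 16.7, 18.7 and 25.4 CPM in siCtrl. KLF12, the member with the longest gene at 448 kb, fell by 3.61. STAT3, which carries cytokine signals to the nucleus, had 207, 178 and 195 CPM with siSFPQ-2 and 183, 198 and 199 CPM with siSFPQ-3, against 58.9, 57.5 and 50.4 CPM in siCtrl (1.80 (SE 0.11, adjusted p = 3.09e-14)), one of 9 risen members among 11 tested STAT and IRF genes, or 7 of 9 expressed in ASO-Ctrl.

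Among other transcription factors the families were mixed. Nuclear receptors rose in 13 of 29 cases and fell in 9, with NR5A2 at 3.66, the vitamin D receptor VDR at 2.63, HNF4A at 2.00 and its relative HNF4G at -3.97. Forkhead genes rose in 12 of 20 cases and fell in 4, or 9 and 4 of 16 expressed in ASO-Ctrl, with FOXC1 at 1.70 and FOXN3 at -2.07. SOX genes rose in 5 of 8 cases and fell in 2, with SOX4 at 1.83 and SOX5 at 3.54. Proneural and other bHLH factors rose in 11 of 29 cases and fell in 13 (median -0.048), and of 26 expressed in ASO-Ctrl 8 rose and 13 fell (median -0.30). ID2, an inhibitor of bHLH factors, had 47.6, 47.9 and 30.9 CPM with siSFPQ-2 and 50.2, 50 and 33.9 CPM with siSFPQ-3, against 250, 227 and 219.8 CPM in siCtrl (-2.43), while its relative ID1 rose by 2.34. Zinc finger ZNF genes, 462 tested, were near the background with 158 higher and 116 lower (median 0.048), and 150 and 116 of 449 expressed in ASO-Ctrl, although ZNF608 stood out with 195, 175 and 162 CPM with siSFPQ-2 and 178, 194 and 195 CPM with siSFPQ-3, against 6.08, 5.21 and 2.99 CPM in siCtrl (5.29 (SE 0.33, adjusted p = 6.33e-11)).

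Interleukins and their receptors rose in 23 of 32 tested cases and fell in 3 (median 1.89), and in 11 of 18 against 3 among those at 1 CPM or more in ASO-Ctrl. The summed level was 993, 948 and 892 CPM with siSFPQ-2 and 1164, 1248 and 1075 CPM with siSFPQ-3, against 326, 339.7 and 309 CPM in siCtrl, 324% of the control mean. IL1A, an alarm cytokine of epithelial cells, had 10.1, 8.68 and 7.87 CPM with siSFPQ-2 and 38.5, 39.2 and 35.1 CPM with siSFPQ-3, against 0, 0.307 and 0.219 CPM in siCtrl, with 6 reads in siCtrl. It was higher with siSFPQ-3 than with siSFPQ-2 in every library, a difference that was not tested. IL1B had 324 reads in the 6 knockdown libraries and 3 in siCtrl, a ratio of 78.8 with a counting interval of 26.7 to 384. IL21 fell by 2.69.

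The TNF superfamily had 12 of 19 tested members higher and 2 lower (median 1.24), and 10 of 17 higher and 2 lower at 1 CPM or more in ASO-Ctrl. TNFRSF9, a costimulatory receptor known from T cells, had 167, 144 and 154 CPM with siSFPQ-2 and 127, 141 and 146 CPM with siSFPQ-3, against 4.92, 6.03 and 3.79 CPM in siCtrl. The groups did not overlap, and the log2 change was 4.92 (SE 0.19, adjusted p = 1.22e-16). TNFSF4 rose by 3.65. The summed leukocyte markers stayed at or below 2.81 CPM in every library, though higher with both siRNAs than in siCtrl, as given above.

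In the TGF-beta superfamily 22 of 40 tested genes rose and 13 fell (median 0.51), and of 38 expressed in ASO-Ctrl 20 rose and 13 fell. FST, the secreted activin inhibitor follistatin, had 22.4, 26 and 31.2 CPM with siSFPQ-2 and 24.6, 20 and 31.3 CPM with siSFPQ-3, against 1.16, 1.84 and 1.46 CPM in siCtrl (4.13 (SE 0.23, adjusted p = 6.49e-15)). BMPR2, the type II receptor for bone morphogenetic proteins, had 15.1, 15.1 and 16.4 CPM with siSFPQ-2 and 12.4, 15 and 10.8 CPM with siSFPQ-3, against 139, 149.8 and 174 CPM in siCtrl (-3.45 (SE 0.084, adjusted p = 3.68e-22)), without overlap between the groups. WNT genes were split, with 10 of 26 higher and 13 lower (median -0.27), or 8 and 13 of 24 expressed in ASO-Ctrl: the receptor FZD1 had 185, 194 and 183 CPM with siSFPQ-2 and 139, 122 and 115 CPM with siSFPQ-3, against 565, 572 and 587 CPM in siCtrl (-1.91), the coreceptor LRP5 fell by 2.96, and LGR4, the receptor for R-spondins, rose by 1.64. Adenylyl cyclases and protein kinase A fell in 10 of 15 cases and rose in 3 (median -0.56), with ADCY2 at -3.35 and the regulatory subunit PRKAR1A at 0.86.

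Surface and matrix genes rose in most of the lists described here, but not in the collagens or keratins. Lists of this kind that are not described in full included mixed ones. Among members expressed in ASO-Ctrl, ADAM and ADAMTS proteases rose in 7 of 20 cases and fell in 7. Tetraspanins rose in 4 of 18 cases and fell in 6, and classical cadherins and desmosome genes rose in 10 of 18 and fell in 6. Over 7 lists (integrins, laminins, claudins and tight junctions, S100 proteins, annexins, semaphorins with plexins and neuropilins, and matrix metalloproteases) 72 of 93 tested members rose and 9 fell (median 1.377), and 52 of 73 rose and 9 fell at 1 CPM or more in ASO-Ctrl (median 1.04). These 7 lists leave out the collagens, the keratins and the mixed lists just named. They were chosen with earlier results of these data known, so the pooled share depends on that choice. Integrins, the receptors through which cells hold the matrix, rose in 16 of 18 cases and fell in 1 (median 1.69), and of 14 expressed in ASO-Ctrl 12 rose and 1 fell (median 1.37). Their summed level was 2975, 3096 and 2612 CPM with siSFPQ-2 and 3455, 3734 and 3241 CPM with siSFPQ-3, against 844, 843 and 699 CPM in siCtrl. ITGAV, of the vitronectin receptors, had 1305, 1413 and 1181 CPM with siSFPQ-2 and 1559, 1762 and 1499 CPM with siSFPQ-3, against 225, 254 and 213 CPM in siCtrl (2.65 (SE 0.08, adjusted p = 2.28e-20)). ITGA2, of the collagen receptor, had 229, 300.3 and 269.7 CPM with siSFPQ-2 and 363, 364 and 309 CPM with siSFPQ-3, against 15.9, 20.1 and 10.3 CPM in siCtrl (4.31 (SE 0.26, adjusted p = 4.82e-11)). Both were far above every control library, while ITGAE fell by 1.05.

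Laminins, the cross-shaped proteins of basement membranes, rose in 8 of 9 tested cases and fell in 1, and of 6 expressed in ASO-Ctrl 5 rose and 1 fell. LAMB1 had 758, 714 and 682 CPM with siSFPQ-2 and 1007, 986 and 975 CPM with siSFPQ-3, against 197, 176 and 183 CPM in siCtrl (2.19 (SE 0.069, adjusted p = 4.59e-20)). LAMA3, whose promoter window is shown above, had 39.3, 24.3 and 27.2 CPM with siSFPQ-2 and 18.9, 34.4 and 14.3 CPM with siSFPQ-3, against 7.24, 6.13 and 7.29 CPM in siCtrl (1.92 (SE 0.33, adjusted p = 3.17e-05)), with 1 siSFPQ-3 library at 14.3 CPM and the others between 18.9 and 39.3 CPM. Collagens were mixed, with 11 of 26 higher and 7 lower (median 0.15) and overlapping sums, and with 7 higher and 7 lower of 20 expressed in ASO-Ctrl (median -0.026). COL6A1 rose to 180 ± 50.5 CPM with siSFPQ-2 and 188 ± 8.93 CPM with siSFPQ-3, against 33.4 ± 3.7 CPM in siCtrl, whereas COL18A1 and COL4A2, of basement membranes, fell by 2.31 and 1.67.

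Claudins and other tight junction genes, which seal epithelial sheets, rose in 9 of 12 cases and fell in 2 (median 1.98), and of 9 expressed in ASO-Ctrl 6 rose and 2 fell (median 1.07). CLDN4 had 8.31, 3.97 and 5.56 CPM with siSFPQ-2 and 8.83, 11.3 and 10.2 CPM with siSFPQ-3, against 0.983, 0.511 and 0.437 CPM in siCtrl (3.60), and CGN (cingulin) rose by 3.62, while CLDN17 fell by 1.78. S100 genes, which code for small calcium binding proteins, rose in 8 of 9 cases and fell in 0, and in 4 of the 5 expressed in ASO-Ctrl, with S100A10 at 92.9 ± 19.7 CPM with siSFPQ-2 and 86.8 ± 25.4 CPM with siSFPQ-3, against 6.31 ± 2.97 CPM in siCtrl. Annexins, which bind membranes when calcium rises, rose in 7 of 10 cases and fell in 2. ANXA1 had 125, 212 and 152 CPM with siSFPQ-2 and 246, 213 and 164 CPM with siSFPQ-3, against 5.9, 7.77 and 4.74 CPM in siCtrl (4.92 (SE 0.25, adjusted p = 1.26e-12)), and S100A10 is known as the partner of another annexin, ANXA2. Under a filter on the mean level instead of the group filter, the laminin and S100 counts of risen members were 5 each.

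Matrix metalloproteases and their inhibitors rose in 8 of 13 cases, but in 3 of 8 at 1 CPM or more in ASO-Ctrl (median 0.001), so the count over all tested members rested on genes low in the controls. MMP15 rose by 2.95 and MMP16 fell by 1.69. Complement and coagulation genes rose in 19 of 22 cases and fell in 2, and rose in 14 and fell in 2 of 17 at 1 CPM or more in ASO-Ctrl. PLAUR, the urokinase receptor, had 20.1, 14.6 and 10.5 CPM with siSFPQ-2 and 25.5, 28.6 and 25.8 CPM with siSFPQ-3, against 1.25, 1.33 and 1.68 CPM in siCtrl (3.79 (SE 0.22, adjusted p = 9.49e-15)), and complement C5 rose by 3.56. Semaphorins, plexins and neuropilins, guidance molecules of axons and vessels, rose in 16 of 22 cases and fell in 1. NRP2 had 145, 144 and 139 CPM with siSFPQ-2 and 187, 189 and 185 CPM with siSFPQ-3, against 20.1, 18.3 and 13.8 CPM in siCtrl (3.24 (SE 0.17, adjusted p = 7.09e-14)). Targets of YAP and SRF, factors that respond to cell spreading and actin, rose in 17 of 28 cases and fell in 2, or 14 and 2 of 24 expressed in ASO-Ctrl, with AMOTL2 at 2.39 and F3 (tissue factor) at 1.93. YAP1 itself averaged 334 and 333 CPM with siSFPQ-2 and siSFPQ-3 and 407 CPM in siCtrl, and was not called against ASO-Ctrl. KRT8 and KRT18, the only epithelial markers that were tested, rose by 1.96 and 5.60, and their part in these lists was not tested. KRT18 had 99 reads in the knockdown libraries and 1 in siCtrl, a ratio of 72.2 with a counting interval of 12.7 to 2882. Keratins as a list were split, with 6 of 13 tested members higher and 7 lower, and of 8 expressed in ASO-Ctrl 1 rose and 7 fell (median -1.92). The count of risen keratins was 3 under the filter on the mean level and after thinning to the shallowest library.

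Neuronal and secretory genes moved both ways. Protocadherins rose in 13 of 28 cases and fell in 4, or 9 and 4 of 20 expressed in ASO-Ctrl, with PCDH7 at 59.4 ± 14.2 CPM with siSFPQ-2 and 60.5 ± 10.6 CPM with siSFPQ-3, against 3.95 ± 1.3 CPM in siCtrl. Synaptic adhesion molecules rose in 12 of 29 cases and fell in 10 (median 0.14), but of 22 expressed in ASO-Ctrl 7 rose and 10 fell (median 0.051). CNTNAP2, one of the longest human genes with a span of 2305 kb, had 861, 764 and 561 CPM with siSFPQ-2 and 652, 712 and 462 CPM with siSFPQ-3, against 52.9, 67 and 44.1 CPM in siCtrl (3.61 (SE 0.28, adjusted p = 2.74e-09)). NTM, which spans 966 kb, fell by 4.29, and SLITRK6, which spans 13.9 kb, rose by 5.62. Secretory granule and neuropeptide genes rose in 11 of 19 cases and fell in 5, or 8 and 5 of 15 expressed in ASO-Ctrl, yet their summed level was 65.0% of the control mean because NTS outweighed the rest. VGF, a precursor of several neuropeptides, had 75.1, 49.4 and 81.3 CPM with siSFPQ-2 and 72.8, 55 and 78.2 CPM with siSFPQ-3, against 5.45, 6.44 and 3.93 CPM in siCtrl (3.73 (SE 0.19, adjusted p = 2.45e-15)). TH and TPH1, the first enzymes of dopamine and serotonin synthesis, rose by 3.74 and 3.40. Synaptotagmins and SNARE proteins, the fusion machinery of vesicles, rose in 16 of 41 cases and fell in 13, or 14 and 13 of 36 expressed in ASO-Ctrl, with STX3 at 2.22 and STX8 at -2.90. STX11 had 363 reads in the knockdown libraries and 3 in siCtrl, a ratio of 88.3 with a counting interval of 29.97 to 430.1.

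Degradation and cell death genes differed by route. The autophagy machinery, which wraps cell contents for the lysosome, rose in 23 of 44 cases and fell in 10 (median 0.45), or 22 and 10 of 42 expressed in ASO-Ctrl. Its summed level was 3382, 3424 and 3511 CPM with siSFPQ-2 and 3400, 3538 and 3385 CPM with siSFPQ-3, against 1955, 2033 and 1991 CPM in siCtrl. ATG2A, which moves lipid into the growing membrane, had 48.2, 35 and 67.2 CPM with siSFPQ-2 and 44.3, 40.4 and 61.1 CPM with siSFPQ-3, against 8.67, 8.28 and 11.4 CPM in siCtrl (2.39 (SE 0.20, adjusted p = 1.7e-10)), and ATG10 fell by 2.38. Lysosomal hydrolases rose in 10 of 43 cases and fell in 19 (median -0.22), or 8 and 19 of 41 expressed in ASO-Ctrl. LIPA, the acid lipase, had 1048, 1096 and 1083 CPM with siSFPQ-2 and 840.5, 796 and 746 CPM with siSFPQ-3, against 3514, 3277 and 3941 CPM in siCtrl (-1.95 (SE 0.073, adjusted p = 1.12e-18)) and made up most of the fall in the summed level to 50.7% of the control mean, while the protease CTSC rose by 1.78.

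Caspases and inhibitors of apoptosis rose in 12 of 17 cases and fell in 2 (median 0.44). CASP4, the inflammatory caspase that senses bacterial lipopolysaccharide, had 136, 149 and 119 CPM with siSFPQ-2 and 141, 127 and 110.2 CPM with siSFPQ-3, against 8.76, 10.3 and 5.68 CPM in siCtrl (4.001, SE 0.27, adjusted p = 1.2e-10). APAF1, the scaffold of the apoptosome, rose by 1.375 and CYCS, the cytochrome c that activates it, fell by 1.47. Cytosolic heat shock chaperones were near the background, with 10 of 35 higher and 15 lower (median -0.031). Genes of cilia fell in 25 of 46 cases and rose in 10 (median -0.37). BBS12, a chaperonin of the ciliary coat, had 93.7, 102 and 96.8 CPM with siSFPQ-2 and 61.6, 59 and 49.1 CPM with siSFPQ-3, against 366, 318 and 310.5 CPM in siCtrl (-2.16), and IFT57 rose by 1.19. Tubulins were split, with 5 of 14 higher and 6 lower, or 4 and 6 of 12 expressed in ASO-Ctrl, and TUBA1A rose by 1.26 while TUBB fell by 1.12.

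The effect also followed the build of genes. Among 11628 protein-coding genes at 1 CPM or more in ASO-Ctrl the median was -0.089, and 32.5% rose and 40.6% fell. By genomic span the median was -0.52 in 363 genes under 3 kb, -0.28 in 1661 genes of 3 to 10 kb, 0.048 in 3996 genes of 30 to 100 kb and -1.17 in 408 genes of 300 kb or more. Both ends of the range thus lay below the middle. Of the genes under 3 kb 194 fell and 49 rose, and of those at 300 kb or more 281 fell and 74 rose.

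By the longest intron the median was -1.86 in 67 genes whose longest intron was 200 kb or more and -0.97 in 287 genes with one of 100 to 200 kb, against 0.084 in 3376 genes with one of 10 to 30 kb. The short end was low as well, at -0.30 in 982 genes whose longest intron was under 1 kb, of which 452 fell and 205 rose. With exonic length the median rose, from -0.68 in 96 genes under 1 kb to 0.015 in 3000 genes of 8 kb or more. Within genes of 300 kb or more, the median was -2.47 in 24 genes with 2 to 4 kb of exon, of which 23 fell and 0 rose, -1.77 in 103 genes with 4 to 8 kb and -0.94 in 281 genes with 8 kb or more. These classes are descriptions over genes, which are not replicates.

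**Figure D4:**
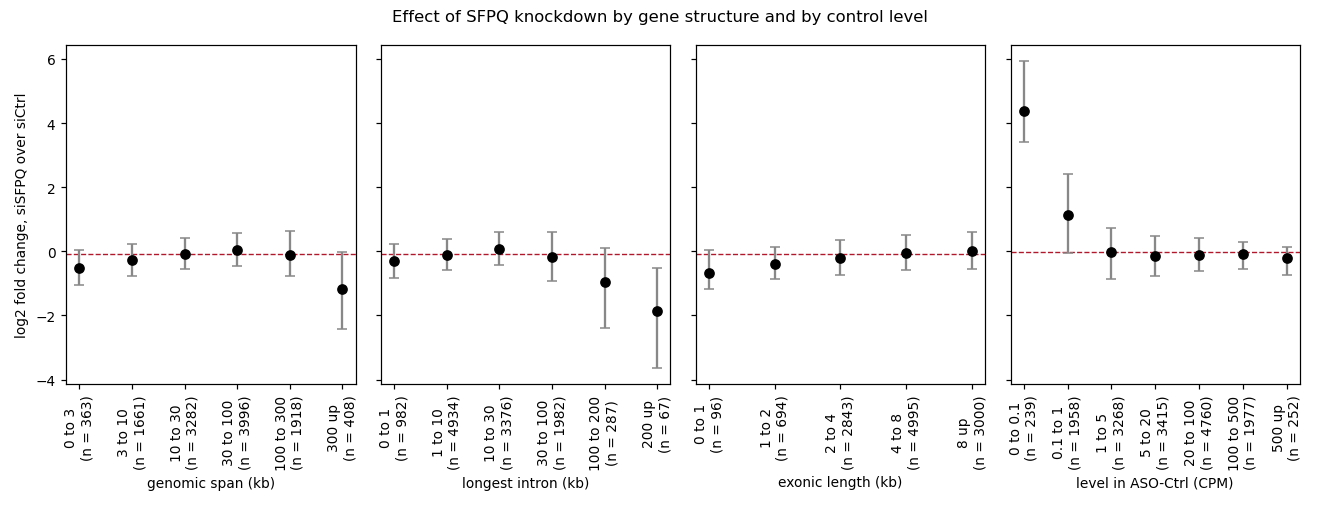
Median log2 fold change of siSFPQ over siCtrl (points) with the interquartile range (bars) by genomic span, longest intron and exonic length, in protein-coding genes at 1 CPM or more in ASO-Ctrl, and by level in ASO-Ctrl over all tested genes; the dashed line is the median of the genes in each panel. The median is -1.17 at spans of 300 kb or more and -1.86 where the longest intron is 200 kb or more, and the high medians at low ASO-Ctrl levels hold genes that passed the filter through a group where they were high.

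Within families the deepest fall was in a long member in some lists and in a short one in others. In 112 lists with at least 10 members at 1 CPM or more in ASO-Ctrl, the deepest fall was in the longest member in 23 lists and among the 3 longest in 43. The largest rise was in the longest member in 5 lists and among the 3 longest in 16. Falls of this kind were those of SUCLG2 (294 kb) in the tricarboxylic acid cycle, FARS2 (568.1 kb) among mitochondrial synthetases, KLF12 (448 kb) among KLF genes, FOXN3 (494 kb) among forkhead genes and ADCY2 (434 kb) among adenylyl cyclases. In other lists the deepest fall was in the shortest member, as for ATP5ME (1.90 kb) in ATP synthase and SF3B5 (0.69 kb) among core snRNP and SF3 proteins. The counts that list sizes alone would give were not computed, and lists can share members. CNTNAP2 and SUCLA2 show that a long gene could also rise. SUCLA2 spans 292 kb, nearly as much as SUCLG2, and had the largest rise of the tricarboxylic acid cycle list (0.39), a call lost without siCtrl replicate 3.

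By control level, the classes of 1 to 5, 5 to 20, 20 to 100 and 100 to 500 CPM in ASO-Ctrl had medians between -0.15 and -0.030. In the 252 genes at 500 CPM or more 134 fell (53.2%) and 54 rose, with a median of -0.22. Noncoding classes at 1 CPM or more in ASO-Ctrl lay on both sides of the median of -0.106 of all genes at that level. Long noncoding and antisense genes lay below it: 224 of 508 lincRNA genes fell and 109 rose (median -0.40), and 236 of 566 antisense genes fell and 116 rose (median -0.38), where antisense counts are uncertain because the strand setting is not given. Intergenic LINC genes at this level fell in 98 of 166 cases and rose in 33. Sense intronic, sense overlapping and still unverified (TEC) genes lay above it, with medians of 0.20, 0.21 and 0.12, and the processed pseudogenes had a median of -0.080.

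Genes annotated inside an intron of another gene on the same strand were set against their hosts. At 1 CPM or more in ASO-Ctrl there were 98 of them in 87 host genes. Their median log2 fold change was 0.21, against -0.13 for the hosts; 35 rose and 25 fell, 68 lay above their host, and 10 rose while the host fell, against 4 the other way. N4BP2L2-IT2 averaged 25.2 and 30.1 CPM with siSFPQ-2 and siSFPQ-3 and 6.70 CPM in siCtrl, while its host N4BP2L2 averaged 193 and 204 CPM, against 203 CPM. SND1-IT1 averaged 2.47 and 2.58 CPM, against 1.02 CPM, and rose by 1.33 while its host SND1 fell by 1.25. DIP2A-IT1 rose by 2.50, with a host log2 fold change of 0.005. KLF7-IT1, inside KLF7, had 18.5, 22.8 and 26.6 CPM with siSFPQ-2 and 20.2, 19.9 and 19.4 CPM with siSFPQ-3, against 0.179, 0.716 and 0.219 CPM in siCtrl, with 12 reads in siCtrl and a host that rose too. Reads from a separate intronic transcript and reads from the unspliced or prematurely ended host RNA cannot be told apart in these counts.

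**Figure D5:**
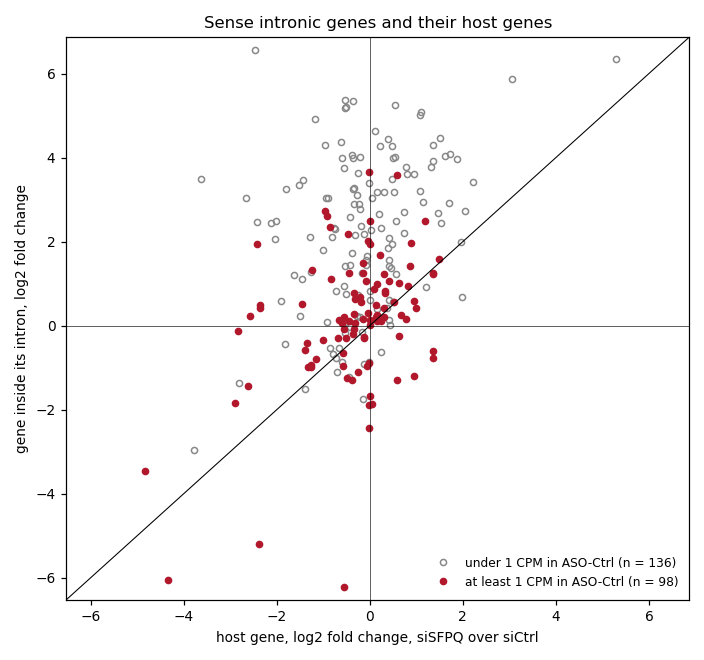
Log2 fold change of siSFPQ over siCtrl of genes inside an intron of a host gene on the same strand (vertical axis) against that of the host (horizontal axis); filled points are 98 genes at 1 CPM or more in ASO-Ctrl and open points 136 genes below it, and the diagonal marks equal change. Of the filled points 68 lie above the diagonal; the open points passed the filter on low counts mostly through the knockdown libraries, so their height is fixed in part by that choice.

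Under 0.1 CPM in siCtrl and in ASO-Ctrl and at 1 CPM or more with both siRNAs were 98 genes, 43 of them protein-coding. AREG, IL1B and STX11, described above, were among them. Another 16 genes, 8 of them protein-coding, were at 1 CPM or more in both control groups and under 0.1 CPM with both siRNAs. No gene met either rule with the siRNAs against NONO. PMCH, the precursor of melanin-concentrating hormone, had 384 and 214 reads in siSFPQ-2 and siSFPQ-3, against 3 in siCtrl; it shares 91.6% of its exonic bases with another gene, so its count is uncertain, and it was chosen after its values were seen, as were CLYBL, a mitochondrial citramalyl-CoA lyase, with 1 and 2 reads, against 84 in siCtrl, and ADAMTS2, which trims procollagen, with 1 and 0 reads, against 51 in siCtrl.

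The difference from the knockdown of NONO, the dimer partner of SFPQ, was tested in the same fit, where siCtrl cancels out. Over all genes 37% were higher and 38.4% lower with SFPQ knockdown than with NONO knockdown, and the NONO effect alone called 7.47% higher and 9.96% lower. Mitochondrial ribosomal proteins were lower with SFPQ knockdown in 72 of 81 cases and higher in 2, with medians of -0.62 for SFPQ and 0.13 for NONO. Ribosome assembly factors were lower in 74 of 85 cases (medians -0.57 and 0.19 for SFPQ and NONO) and kinetochore proteins in 35 of 48 (medians -0.82 and -0.17). Over all tested members, those low in the controls included, integrins were higher with SFPQ knockdown in 16 of 18 cases, ETS genes in 15 of 18 and complement genes in 18 of 22. Some of the genes named had changes of the same sign in both: RRM2B, RPS27L and CRYAB had log2 fold changes of 0.94, 0.79 and 1.59 with SFPQ knockdown and 1.00, 1.05 and 1.46 with NONO knockdown. Since both effects share the siCtrl libraries, these pairs of values are not independent.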

How the data were processed

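Whole-number counts of reads per Ensembl gene, not normalized, were deposited by the authors for each library. The submitters' processing notes name cutadapt 4.2, STAR 2.7.5a, featureCounts of Subread 2.0.3 and DESeq2 1.38.1, and build hg38. Annotation release, strandedness of the counting and treatment of reads with more than 1 position: not given in the sources used here. Antisense genes, pseudogenes, genes that share over 20% of their exonic bases and genes inside another gene are therefore uncertain.

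From the deposited counts, edgeR 4.0.16 in R 4.3.3 (TMM scaling, filterByExpr by group, robust quasi-likelihood fit) was run on all 24 libraries in 8 groups, which gave 16 residual degrees of freedom. Of 38046 genes with a read, 15869 were tested. The code was tested on simulated data. Single values per library were compared with exact 2-sided permutation tests over 84 splits. Intervals on read ratios cover counting error only. Values with ± are means and SD of 3 libraries unless n is given.

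The members and the 137 gene lists were chosen with earlier results of these data known, and 61 lists are described. The named genes were SFPQ, the 10 largest rises and falls in CPM, up to 3 risen and 3 fallen members of a list (at 5 CPM or more in at least 1 of the 3 groups, and called in the mean and with each siRNA), and cell type markers. Genes set against their host and genes low in siCtrl were named after their values were seen. Some named genes are not reported here. The alternatives were other scaling, filters and depth, DESeq2 1.42.0, the 9 libraries alone, ASO-Ctrl, a replicate block, a 2-fold minimum and leaving out each library.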

Additional observations from a re-analysis of the deposited data

Results flagged for a closer look

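The siSFPQ-2 replicate 2 library stood apart from the other 5 knockdown libraries in depth. It had 4243196 counts, while the others had 7899220 to 9747514, and 21003 genes with a read. The gap to the nearest library was over Dixon's critical value for 6 samples in both measures, a rule that chance meets in about 1 of 20 groups. Without this library 5513 genes rose and 5742 fell, against 5499 and 5678 with it. SFPQ stood at 239 CPM in it, between 153 and 239.5 CPM in the other knockdown libraries.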

How the results depend on the processing

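Leaving out 1 library at a time, 5274 to 5513 genes rose and 5348 to 5792 fell in the mean effect, and 5499 and 5678 with all libraries. The counts of called genes over all tested genes stayed within 1.5 times of their values under the alternatives run on them, and no log2 fold change of a named gene or difference in quality reversed. Total counts and mitochondrial share, with an unadjusted p of 0.0238 each and 0.0595 after adjustment, could not reach an unadjusted p of 0.05 without 1 siCtrl library, since 8 libraries allow no p below 0.0714; over all such runs the difference in total counts was -4465000 to -2702000 and that in mitochondrial share 1.89 to 2.61 percentage points. The replicate numbers were not taken to pair the libraries, since not every correlation of deviations between same-numbered libraries was over 0.1: the 9 ran from 0.011 to 0.278, and those of the 3 libraries numbered 3 from 0.191 to 0.278, while these correlated with other numbers at -0.181 to -0.094. Not every library correlated best with its own number. With a replicate block 5764 genes rose and 5946 fell. The median over all genes ran from -0.0433 with upper quartile factors to 0.0137 with DESeq2, and the share of higher among called genes from 47.7% to 51.0%. Of 2332 recomputed counts of lists and classes 173 moved by over 1.5 times, 83 of them under the 2-fold minimum. At least 2-fold, 6 kinesins rose and 4 fell (11 and 17 without that minimum), as did 3 and 2 heat shock chaperones (10 and 15) and 1 and 0 nucleoporins (5 and 22), so the balance of these lists turned. The risen count of matrix metalloproteases was 8, and 4 under the filter on the mean; that of LINC genes was 82, and 44 under that filter, 137 with no filter and 40 after thinning to the shallowest library; that of intronic and overlapping transcripts was 22, and 12 under that filter. Of 12829 recomputed values of named genes 30 lost their call and 15 gained one. Depth limits genes with few siCtrl reads, whose ratios are given with counting intervals.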
